A study of Mus musculus with 36 samples.

Results

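Glucocorticoid signalling in the anterior cingulate cortex (aCC) was followed through 10 genes, the 2 corticosteroid receptors Nr3c1 and Nr3c2 and 8 genes that answer to stress hormones, Fkbp5, Sgk1, Tsc22d3, Per1, Cdkn1a, Zbtb16, Mt1 and Mt2. They were picked by name from the 52636 genes of the expression table, with earlier results of these data known, and all 10 passed the filter on low values, which left 25572 genes. RNA came from punches of the right aCC of 36 female mice aged 8 to 11 weeks, with 1 library per mouse. All carried the C57BL/6NTac background of the Brd1 line. Brd1+/- mice are heterozygous for a targeted deletion in Brd1, which encodes a chromatin reader of histone acetyltransferase complexes, and WT mice were their littermates. Imipramine (IMN), a tricyclic antidepressant, was given at 10 mg/kg subcutaneously and vehicle was saline. There were 4 groups, with 8 WT mice on vehicle and 10 on IMN, and with 9 Brd1+/- mice on each (called WT vehicle, WT IMN, Brd1+/- vehicle and Brd1+/- IMN). By the study's methods every mouse was injected on consecutive days, met a tail suspension test on the first day and an open field and a forced swim on the last, and was killed 1 h after the swim, so all groups share recent stress and no unstressed group was analysed here. The deletion is present in every cell, and the punches hold all cell types of the tissue.

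Corticosterone released under stress enters the brain and binds a pair of nuclear receptors. The mineralocorticoid receptor, encoded by Nr3c2, holds the hormone at resting levels, whereas the glucocorticoid receptor, encoded by Nr3c1, becomes occupied when the hormone climbs. Occupied receptors move to the nucleus, bind glucocorticoid response elements built from AGAACA half-sites facing each other, and induce genes such as Fkbp5 and Tsc22d3 within an hour or so, and several of these genes also answer to other signals such as neuronal activity, metals or the circadian clock.

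Promoter sequence was searched for short elements tied to the hormone and to other signals, as a description only. Whether any of them is bound or used was not tested. RefSeq windows (build GRCm38.p6) of 250 bases before and 50 after a transcription start were at hand for 8 of the 10 genes, 17 windows in all, and not for Nr3c1 and Zbtb16. The full 300 bases were searched on both strands and only the 250 before the start are printed, 5′ to 3′ on the gene's strand. A full glucocorticoid response element (AGAACA, 3 bases, then TGTTCT) occurred in 3 of the 32544 distinct mouse promoter windows (0.00922%), and 1 of these belongs to Sgk1. It starts at base -189 of the window at chr10:21993640-21993889 (plus strand), inside the span of the gene, and both half-sites are in capitals.
Sgk1: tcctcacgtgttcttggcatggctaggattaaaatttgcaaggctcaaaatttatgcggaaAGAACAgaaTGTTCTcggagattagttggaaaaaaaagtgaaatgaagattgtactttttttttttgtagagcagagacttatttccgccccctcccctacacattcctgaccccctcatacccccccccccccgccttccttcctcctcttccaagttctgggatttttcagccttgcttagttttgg
The Per1 window at chr11:69098699-69098948 (plus strand) holds an E-box (CACGTG, in capitals), the element read by the clock proteins, as do 7.17% of all windows. It is shown because Per1 varied with the clock genes below. The same letters also occur in a Fkbp5 window, at base -169, and in the Sgk1 window above, at base -246, and these genes had r = 0.05 and -0.43 with the clock score, neither called.
Per1: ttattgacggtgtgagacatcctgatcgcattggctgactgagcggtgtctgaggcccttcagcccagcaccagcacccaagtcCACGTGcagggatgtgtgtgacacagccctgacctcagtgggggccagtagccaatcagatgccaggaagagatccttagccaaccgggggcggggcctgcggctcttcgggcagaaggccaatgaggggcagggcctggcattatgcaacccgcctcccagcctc
The metallothionein genes Mt2 and Mt1 lie next to each other on chromosome 8, 5514 bases apart. They are printed as a neighbouring pair that varied together, with the core of the metal response element (TGCNCNC on either strand) in capitals. With the score of 4 further metal response genes, r was -0.48 for Mt1 and -0.20 for Mt2, neither called. The Mt2 window at chr8:94172368-94172617 (plus strand) holds 5 cores before the start and 1 after it, and the Mt1 window at chr8:94178839-94179088 (plus strand) holds 1 before and 2 after. At least 1 core occurs in 51.3% of all windows, at least 3 in 7.13% and at least 5 in 0.704%. Other genes of the set hold the core too. An Sgk1 window at chr10:21994416-21994665 has 3 and a Per1 window has 2. A window each of Nr3c2, Fkbp5 and Tsc22d3 and another of Sgk1 have 1.
Mt2: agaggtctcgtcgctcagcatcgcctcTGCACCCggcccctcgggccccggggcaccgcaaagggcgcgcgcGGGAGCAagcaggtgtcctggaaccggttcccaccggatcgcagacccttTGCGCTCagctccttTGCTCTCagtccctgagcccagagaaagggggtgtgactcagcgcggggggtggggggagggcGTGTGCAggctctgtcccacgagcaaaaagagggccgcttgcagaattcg
Mt1: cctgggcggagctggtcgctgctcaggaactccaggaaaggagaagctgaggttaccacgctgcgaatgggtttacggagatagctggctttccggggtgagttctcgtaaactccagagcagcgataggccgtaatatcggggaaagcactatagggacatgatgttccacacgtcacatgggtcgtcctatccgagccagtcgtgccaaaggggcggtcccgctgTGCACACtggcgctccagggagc
No other window of Sgk1 held the exact full element, and no window of Fkbp5, Tsc22d3, Cdkn1a, Nr3c2, Per1, Mt1 or Mt2 did. This says only that these letters are not in these windows of 300 bases. A cyclic AMP response element (TGACGTCA) was found in no window of these genes and in 1.8% of all windows.

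Before any comparison, some libraries stood apart. Values are in TPM, the share of transcripts scaled to a fixed total, which is a level per transcript length within a library, and a marker score is the mean of log2(TPM + 0.5) over the genes of a list. Brd1 itself averaged 26.4 ± 3.03 TPM in WT vehicle, 16.8 ± 2.72 in Brd1+/- vehicle, 23.3 ± 3.43 in WT IMN and 16.8 (n = 9, range 13.5 to 19.4) in Brd1+/- IMN (mean ± SD), in the direction the labels give. Markers of cortical neurons were present in all 36 libraries, with scores between 6.85 and 7.40. Brd1+/- vehicle 6 had a striatal score of 6.64 and a choroid plexus score of 5.69, against 2.59 to 4.04 and -0.84 to 0.74 in the other 35 libraries. WT vehicle 1 had the highest oligodendrocyte score (7.25) and the lowest immediate-early score (4.67) of its group. Oligodendrocyte markers, 10 of 10 above 0 in every library, summed to between 192 and 3570 TPM, so the amount of white matter RNA in a punch differed widely between mice. In bulk tissue, fewer cells of a type and less RNA per cell cannot be told apart.

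Both receptors were expressed in every mouse. Nr3c1 had 18.5 to 38.4 TPM over all mice, with a lowest, median and highest value of 18.5, 24.1 and 38.4 TPM in WT vehicle, 23.6, 28.5 and 34.5 in Brd1+/- vehicle, 19.6, 26.8 and 31.5 in WT IMN, and 22.3, 26.7 and 30.3 in Brd1+/- IMN. The groups overlapped, and the single highest mouse was WT vehicle 1. Nr3c2 (chr8:76899442-77245012, plus strand) had 7.31, 9.57 and 11.7 TPM in WT vehicle, 7.00, 10.1 and 12.5 in Brd1+/- vehicle, 7.55, 9.63 and 11.5 in WT IMN, and 8.67, 11.4 and 13.8 in Brd1+/- IMN. On the per-length TPM scale the glucocorticoid receptor transcript exceeded that of the mineralocorticoid receptor in every mouse, by a median of 2.70 times and by between 1.96 and 3.88 times.

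**Figure D1:**
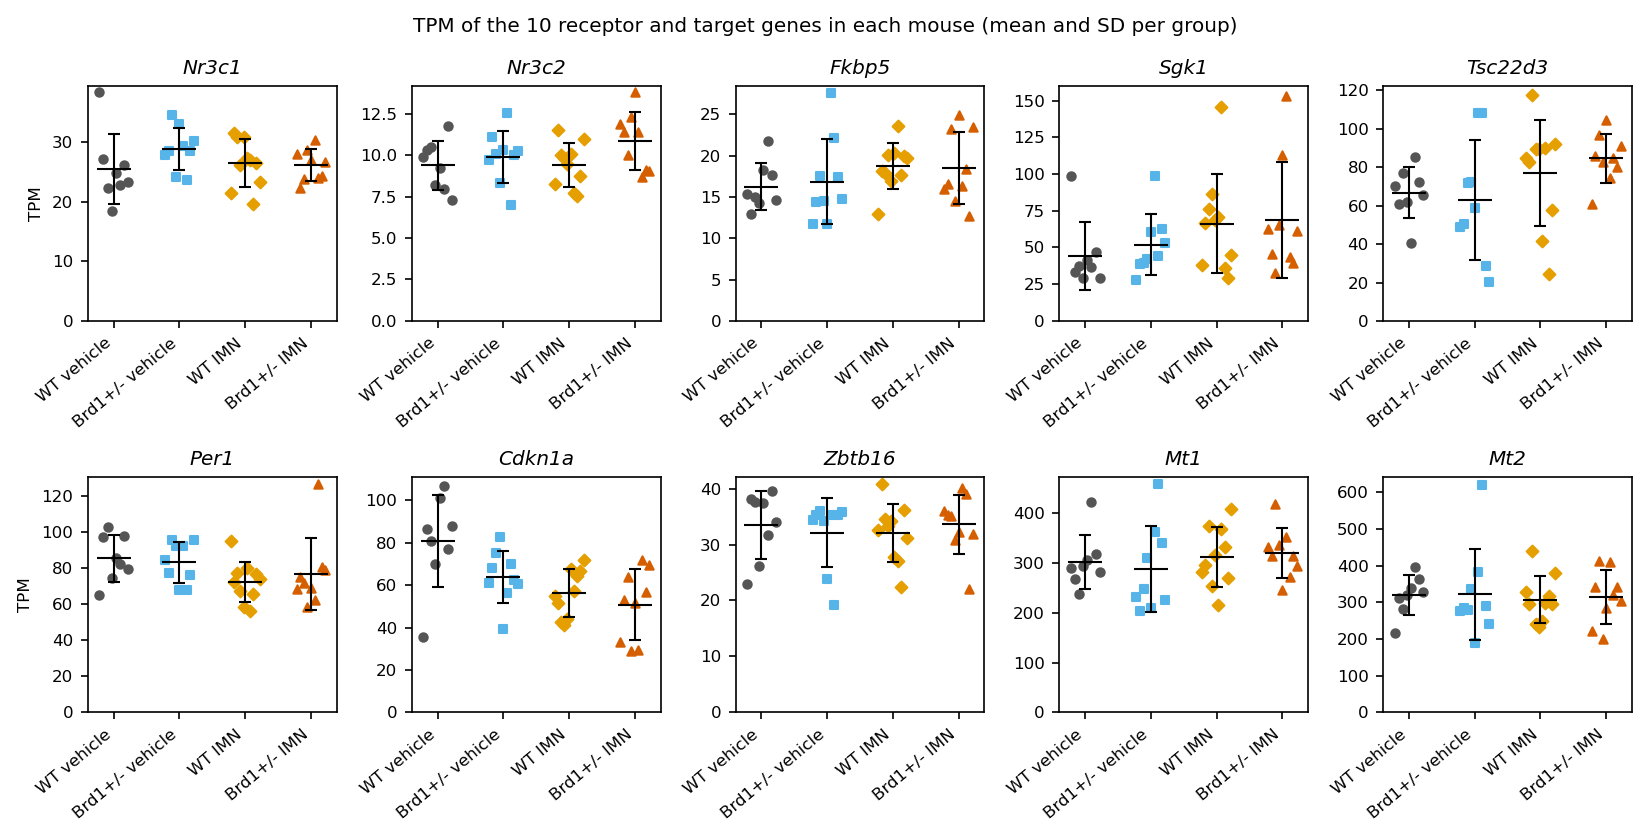
Expression in TPM (vertical axis, from 0) of each of the 10 genes in the 4 groups (horizontal axis), with 1 point per mouse and the mean and SD as bars. Every gene overlaps between the groups, Cdkn1a sits lower with IMN, and single mice stand far out, such as WT vehicle 1 for Sgk1 (98.8 TPM) and for Cdkn1a (35.8 TPM).

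Over both genotypes, IMN minus vehicle was -0.03 (SE 0.073) for Nr3c1 and 0.07 (SE 0.073) for Nr3c2 on the log2(TPM + 0.5) scale, on which all differences below are given. The 95% intervals ran from -0.18 to 0.11 and from -0.08 to 0.21. Between genotypes, Nr3c1 differed by 0.09 (SE 0.072, Brd1+/- minus WT) and Nr3c2 by 0.14 (SE 0.073), with limma p-values of 0.231 and 0.0660. Neither receptor was called in any comparison.

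Over both genotypes, the treatment difference with the smallest p among the 10 genes was that of Cdkn1a (chr17:29090976-29100727, plus strand), which encodes p21, an inhibitor of cyclin-dependent kinases that is induced by glucocorticoids, by p53 and by neuronal activity. Its lowest, median and highest values were 35.8, 83.6 and 107 TPM in WT vehicle, 39.2, 62.6 and 82.8 in Brd1+/- vehicle, 41.4, 56.1 and 72.1 in WT IMN, and 29.0, 52.8 and 71.8 in Brd1+/- IMN. All 10 WT IMN mice lay below the WT vehicle mean of 80.9 TPM and 7 of 9 Brd1+/- IMN mice below the Brd1+/- vehicle mean of 64.0, yet the ranges overlapped. With IMN it was lower by -0.43 (SE 0.13, limma p = 0.0020, adjusted p = 0.161), to 74.2% of the vehicle level. Within WT mice the difference was -0.48 (SE 0.17, p = 0.0108) and within Brd1+/- mice -0.38 (SE 0.19, p = 0.0552). Within one genotype other genes differed by more, Sgk1 in WT mice (0.54, limma p = 0.0656) and Tsc22d3 in Brd1+/- mice (0.59, limma p = 0.0332).

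One mouse weakened this difference. Without WT vehicle 1, the lowest Cdkn1a value of its group, the difference over both genotypes was -0.50 with an adjusted limma p of 0.0314, and within WT mice -0.64 with an adjusted limma p of 0.0493. This fit was picked after the values were seen. Over both genotypes, leaving out each of the 36 mice in turn gave -0.50 to -0.39, with an adjusted limma p from 0.0314 to 0.265. Immediate-early genes, transcribed within minutes of neuronal firing, were also lower with IMN over both genotypes: 9 of 13 at an unadjusted p under 0.01, against 1.94% of all genes tested, and 3 of 13 at an adjusted p under 0.05. Their summed level was 741 to 1564 TPM in WT vehicle, 988 to 1618 in Brd1+/- vehicle, 668 to 1236 in WT IMN and 510 to 1207 in Brd1+/- IMN, and 0 of the 13 were listed at 0 in any library. With the immediate-early score as a covariate, an alternative added after the data were seen, the Cdkn1a difference was 0.079 (limma p = 0.388).

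Counted over the 10 genes, 1 passed an unadjusted p under 0.01 for the IMN effect over both genotypes, where 3.11% of the 25572 genes tested passed (299 higher, 497 lower, and 442 and 403 once mitochondrially encoded genes were left out of the TPM). None passed an adjusted p under 0.05 in limma, where 70 genes did (0.274%), and 3 of the 10 had an unadjusted p under 0.05. The median difference of the 10 genes was 0.04 and that of all genes tested was -0.0023.

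**Figure D2:**
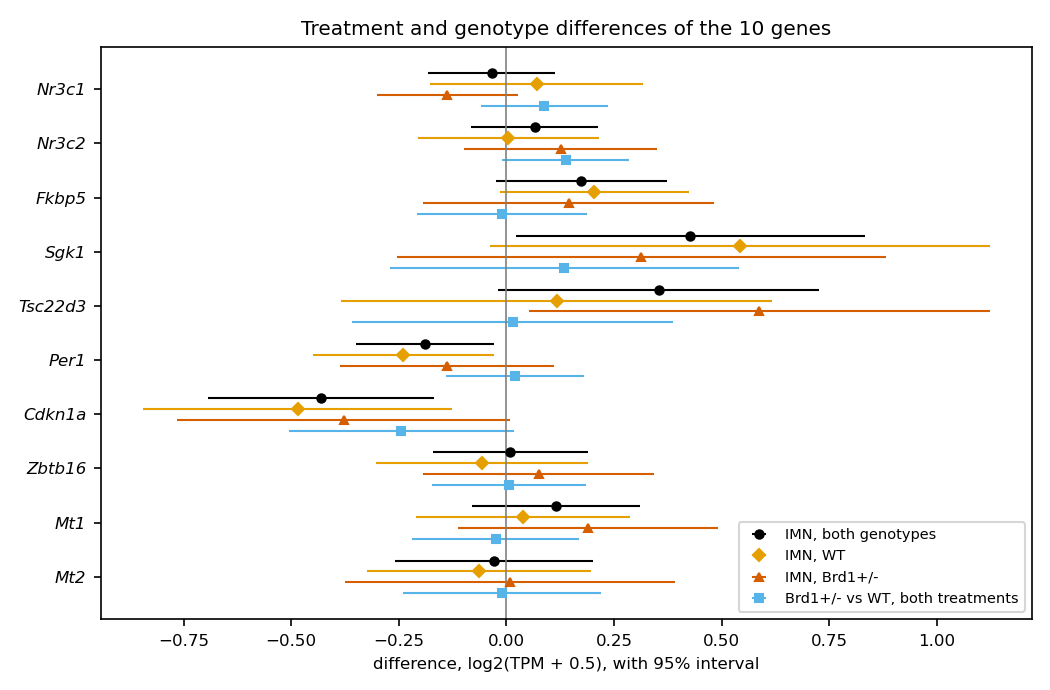
Differences in log2(TPM + 0.5) with 95% intervals (horizontal axis) for each gene (vertical axis), for IMN over both genotypes, IMN in each genotype, and Brd1+/- against WT over both treatments. Only for Cdkn1a, Per1 and Sgk1 does the interval of the IMN effect over both genotypes leave out 0.

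Per1 (chr11:69095217-69109960, plus strand) encodes a repressor of the circadian clock that glucocorticoids and neuronal activity also induce. Its lowest, median and highest values were 64.9, 83.7 and 102 TPM in WT vehicle, 67.6, 84.7 and 95.8 in Brd1+/- vehicle, 56.4, 73.1 and 95.1 in WT IMN, and 58.6, 71.6 and 127 in Brd1+/- IMN. In WT mice, 9 of 10 with IMN lay below the vehicle mean, and in Brd1+/- mice 8 of 9 did. The difference over both genotypes was -0.19 (SE 0.079, limma p = 0.0225, adjusted p = 0.420) and did not pass either rule. The exception among the Brd1+/- IMN mice was replicate 7, at 127 TPM. Without it the difference was -0.24 with an unadjusted limma p of 0.0012. With the immediate-early score as a covariate it was 0.070.

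Sgk1 (chr10:21882184-21999903, plus strand) encodes a kinase that regulates ion channels and transporters, and in brain it is abundant in oligodendrocytes after stress. It was the most variable gene of the set, with 29.4, 37.2 and 98.8 TPM (lowest, median, highest) in WT vehicle, 28.0, 44.1 and 99.0 in Brd1+/- vehicle, 29.1, 67.8 and 146 in WT IMN, and 32.4, 61.4 and 153 in Brd1+/- IMN. The lowest values were alike in the 4 groups and the IMN groups reached further up. The difference with IMN was 0.43 (SE 0.20, limma p = 0.0397, adjusted p = 0.496). The 10 oligodendrocyte markers moved the same way, all 10 positive with a median of 0.41 and 0 of 10 at an unadjusted p under 0.01. Their summed level was 192 to 2841 TPM in WT vehicle, 240 to 1800 in Brd1+/- vehicle, 233 to 3570 in WT IMN and 230 to 3445 in Brd1+/- IMN. With the oligodendrocyte and endothelial scores as covariates, the Sgk1 difference was 0.23 with a smaller error (SE 0.069, limma p = 0.0023, adjusted p = 0.180), and with the immediate-early score as a covariate it was -0.065.

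Tsc22d3 (chrX:140539528-140600659, minus strand) encodes GILZ, a leucine zipper protein that carries part of the anti-inflammatory action of glucocorticoids. It had 40.6, 67.9 and 85.4 TPM in WT vehicle, 20.01, 58.7 and 108.5 in Brd1+/- vehicle, 24.4, 87.1 and 117 in WT IMN, and 61.0, 84.6 and 104 in Brd1+/- IMN. Low values came from a few mice, Brd1+/- vehicle 9 and 8 (20.01 and 28.4 TPM) and WT IMN 8 (24.4 TPM), and no Brd1+/- IMN mouse fell under 61.0. The IMN difference was 0.35 (SE 0.18, limma p = 0.0623) over both genotypes, 0.12 (SE 0.24) in WT and 0.59 (SE 0.26, p = 0.0332) in Brd1+/- mice, and the interaction of 0.47 had a 95% interval from -0.27 to 1.21 (p = 0.205).

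Fkbp5 (chr17:28399094-28517527, minus strand) encodes a co-chaperone that lowers the hormone affinity of the receptor and closes a negative feedback loop. Its values were 12.9, 15.1 and 21.7 TPM in WT vehicle, 11.7, 14.8 and 27.6 in Brd1+/- vehicle, 13.0, 18.9 and 23.6 in WT IMN, and 12.7, 16.6 and 24.9 in Brd1+/- IMN. The highest, 27.6 TPM, was Brd1+/- vehicle 6, the library with striatal and choroid plexus RNA. In WT mice, 9 of 10 with IMN lay above the vehicle mean, but in Brd1+/- mice only 4 of 9 did. The IMN difference was 0.17 (SE 0.098, limma p = 0.0822), and 0.22 without Brd1+/- vehicle 6.

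Zbtb16 and the metallothioneins showed little difference between groups. Zbtb16 (chr9:48654297-48836222, minus strand), a zinc finger repressor induced by glucocorticoids in many cells, ranged from 19.2 to 40.9 TPM over all mice, and its IMN difference was 0.01 (95% interval -0.17 to 0.19). Mt1 (chr8:94179082-94180327, plus strand) and Mt2 (chr8:94172664-94173568, plus strand) encode small metal-binding proteins and were the most abundant of the set, with 205 to 459 TPM and 188 to 619 TPM. Their IMN differences were 0.12 (95% interval -0.08 to 0.31) and -0.03 (95% interval -0.26 to 0.20), the latter 0.0091 after quantile normalization. The highest mouse for both was Brd1+/- vehicle 7. Mt1 and Mt2 transcripts share 0 stretches of 50 bases, the read length, with each other or with another annotated gene.

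In order of mean level per length, Mt2 (316 TPM) and Mt1 (306 TPM) led, followed by Per1 (79.1), Tsc22d3 (73.1), Cdkn1a (62.3), Sgk1 (58.4), Zbtb16 (32.8), Nr3c1 (26.7), Fkbp5 (17.6) and Nr3c2 (9.90). Neighbours in this order often changed places between mice. Mt2 exceeded Mt1 in 23 of 36 mice, Per1 exceeded Tsc22d3 in 20, Tsc22d3 exceeded Cdkn1a in 20 and Cdkn1a exceeded Sgk1 in 23. Other steps were clear: Mt1 lay above Per1, Nr3c1 above Fkbp5 and Fkbp5 above Nr3c2 in 36 of 36 mice.

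Neither genotype nor the single group comparisons called any of the 10 genes. In limma, 0 of 10 had an unadjusted p under 0.01 for genotype over both treatments (0.731% of all genes), WT IMN against WT vehicle (1.58%), Brd1+/- IMN against Brd1+/- vehicle (1.22%), Brd1+/- against WT with vehicle (0.7%) or with IMN (0.614%), and the interaction (0.547%). At an unadjusted p under 0.05 there were 0, 2, 1, 0, 0 and 0 genes in that order, and 0 at an adjusted p under 0.05. Over both treatments, Nr3c2 (0.14, limma p = 0.0660) and Cdkn1a (-0.24, SE 0.13, limma p = 0.0664) came closest between genotypes. With vehicle, leaving out WT vehicle 1 brought 2 genes under an unadjusted p of 0.01: Cdkn1a was -0.46 (Brd1+/- minus WT, limma p = 0.0021) and Nr3c1 was 0.29 (limma p = 0.0056), with an adjusted p of 0.596 and 0.644. Leaving out either Brd1+/- vehicle 6 or 7 brought Tsc22d3 under 0.01 for IMN in Brd1+/- mice (0.71 in both cases).

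Other genes of the pathway were higher with IMN where most of the 10 were not called. Of 20 further genes known to be induced by glucocorticoids, 10 were higher at an unadjusted p under 0.01 and 0 lower, against 1.17% of all genes tested, and 3 passed an adjusted p under 0.05. The median difference of the 20 was 0.22. The list was drawn up with earlier results of these data known and is not independent evidence of its direction. Galnt15, which encodes a glycosyltransferase, had medians of 1.07 TPM in WT vehicle, 1.03 in Brd1+/- vehicle, 1.90 in WT IMN and 1.83 in Brd1+/- IMN, a difference of 0.64 (SE 0.095, limma adjusted p = 8.5e-04). Sult1a1, a sulfotransferase, had medians of 9.18, 8.12, 13.4 and 13.1 TPM in the same order and a difference of 0.65 (SE 0.10, limma adjusted p = 0.0012). Ddit4, an inhibitor of mTORC1 signalling induced by stress hormones and low oxygen, had medians of 20.5, 19.2, 28.8 and 29.0 TPM and a difference of 0.49 (SE 0.078, limma adjusted p = 0.0012).

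Weaker differences in the same list were those of Fam107a, an actin-associated protein of the stress response, at 0.30 (SE 0.075), Angptl4, a secreted inhibitor of lipoprotein lipase, at 0.74 (SE 0.21), and Plin4, a lipid droplet protein, at 0.68 (SE 0.20). All had an adjusted p between 0.0689 and 0.154. The 10 genes of this list that were not called included Klf9 (0.09), Pdk4 (0.01) and Dusp1 (-0.08), the last of which is also induced by neuronal activity. Among 11 tested chaperones, cofactors and steroid enzymes and the 4 genes of the CRH system, 0 had an unadjusted p under 0.01, and at an unadjusted p under 0.05 the exception was Hspa8 (-0.11, p = 0.0478). Of 12 clock genes, Per2 was lower (-0.33, SE 0.11, limma p = 0.0046, adjusted p = 0.233) and 11 were not called, and of the 4 further metal response genes 0 were, with Mtf1 at an unadjusted limma p of 0.0451 (-0.17).

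**Figure D3:**
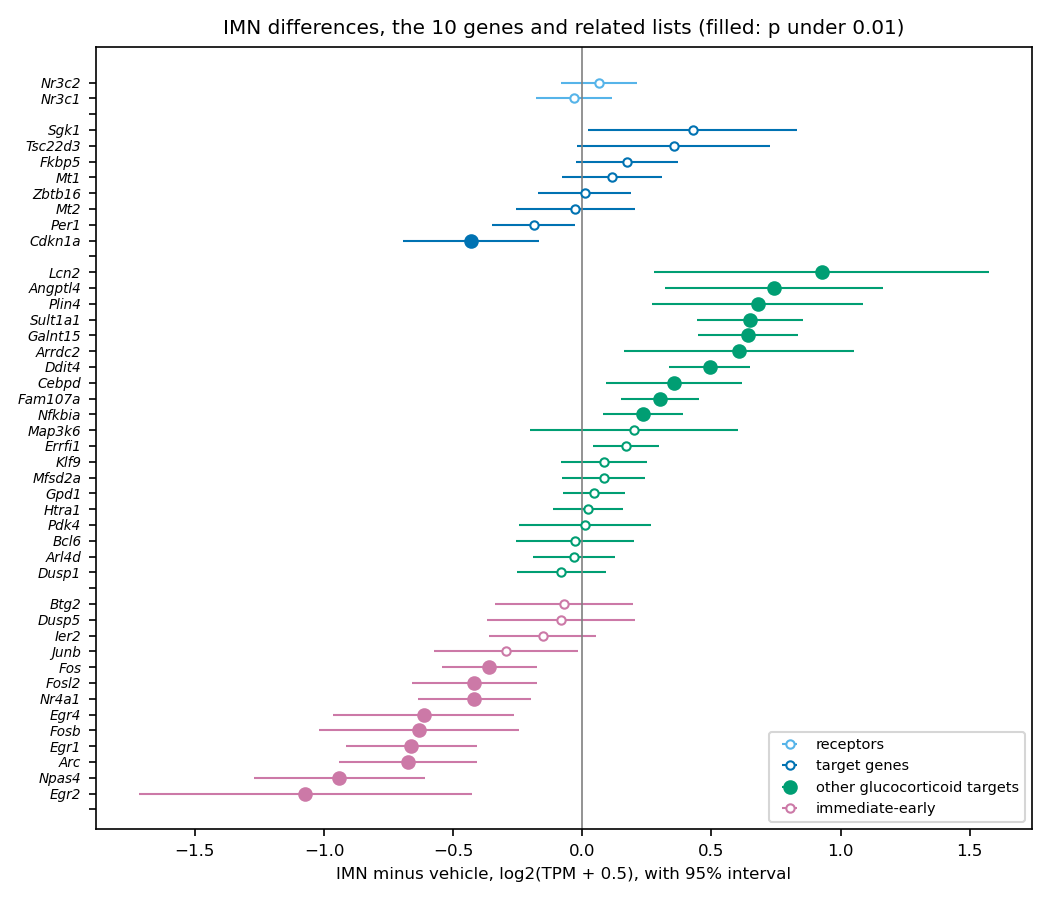
IMN minus vehicle over both genotypes in log2(TPM + 0.5) with 95% intervals (horizontal axis), for the receptors, the 8 target genes, 20 other glucocorticoid targets and 13 immediate-early genes (vertical axis), filled where the unadjusted p is under 0.01. In the list of other targets 10 genes are filled on the positive side, and among the immediate-early genes 9 are filled on the negative side.

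Variation between mice of the same group was examined next, with the 4 group means taken out, over 45 pairs and 140 relations of a gene to a list score. Among the pairs, 4 were called, meaning that each gene passed an adjusted p under 0.05 over all genes tested when the other was used as the predictor in limma. Nr3c1 and Sgk1 varied together (r = 0.59, rho = 0.63, permutation p = 0.00027 and 0.00013), each ran against Cdkn1a (r = -0.59 for Nr3c1, rho = -0.50, permutation p = 0.00044 and 0.00214, and r = -0.57 for Sgk1, rho = -0.57, permutation p = 0.00103 and 0.00062), and Per1 varied with Cdkn1a (r = 0.56, rho = 0.45, permutation p = 0.00048 and 0.00737). The adjusted p of these 4 pairs, the larger of both directions, was between 0.0056 and 0.0295. Without the 2 mice farthest from the median of the first gene, r was 0.50, -0.53, -0.57 and 0.56. The sign was the same in each of the 4 groups. All 4 calls depend on 1 mouse and on the covariates. Without WT vehicle 1, 0 of the 45 pairs were called, though these 4 kept their sign. In that fit r was 0.50 for Nr3c1 with Sgk1 and -0.43 for Nr3c1 with Cdkn1a. It was -0.48 for Sgk1 with Cdkn1a and 0.50 for Per1 with Cdkn1a. None of the 4 was called with the oligodendrocyte and endothelial scores as covariates (adjusted limma p between 0.324 and 0.992) or with the immediate-early score as a covariate (0.120 to 0.870). Sgk1 itself had r = 0.95 with the oligodendrocyte score, and Cdkn1a had r = 0.85 with the immediate-early score. Taking out a score so close to a gene leaves little of that gene, so such fits cannot decide on its pairs. The pair of Per1 and Cdkn1a was also not called without Brd1+/- vehicle 5 or Brd1+/- IMN 4, 6 or 7, with r between 0.51 and 0.53.

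Mt1 and Mt2 had the largest r of all pairs (0.67, rho = 0.66, permutation p = 4e-05 and 5e-05, and r = 0.55 without the 2 farthest mice). The pair was called in 1 direction alone, with an adjusted limma p of 0.0023 and 0.199. The receptors varied together with r = 0.50 (rho = 0.50, permutation p = 0.00231 and 0.00321), and this pair was not called.

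How many other genes followed each of the 10 differed widely. At an adjusted p under 0.05, 13.3% of genes varied with Sgk1, 11.5% with Cdkn1a, 9.94% with Nr3c1, 5.65% with Mt2, 2.76% with Per1, 1.04% with Nr3c2 and 0.504% with Fkbp5, and 0% with Tsc22d3, Zbtb16 or Mt1. The count of called pairs has to be read against these shares. The genes most like each one, by r over the 36 mice among genes of at least 1 TPM on average, are given with the lists they resembled.

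Sgk1 followed the oligodendrocyte markers, the cells that make myelin. Its r with their score was 0.95 (rho = 0.93, permutation p = 1e-05, the smallest these draws can give, limma adjusted p = 8.7e-16), and it ranked 24th of 25562 genes by the size of r, where 14.3% of genes passed an adjusted p under 0.05. All 10 markers passed with Sgk1, with r between 0.93 and 0.95. The relation was 0.94 without the 2 farthest mice and between 0.87 and 0.99 in each group. Its 3 closest genes were Adamts4, Tspan2 and B3galt5 (r = 0.96 each). Nr3c1 varied with this score too (r = 0.63, limma adjusted p = 0.0017), although in Brd1+/- vehicle mice r was 0.02, and Cdkn1a ran against it (r = -0.58, limma adjusted p = 0.0032). With the immediate-early score as a covariate neither was called (r = 0.49, limma adjusted p = 0.0688 for Nr3c1, and r = -0.28, limma adjusted p = 0.426 for Cdkn1a). With the oligodendrocyte and endothelial scores as covariates, r was -0.014 for Nr3c1 with Sgk1, -0.060 for Sgk1 with Cdkn1a and -0.35 for Nr3c1 with Cdkn1a. Nr3c1 and Sgk1 also varied with the score of chaperones, cofactors and steroid enzymes, where 976 of 25561 genes passed. For Nr3c1 r was 0.65 and for Sgk1 0.53 (limma adjusted p = 0.0073 and 0.0358). Of the 11 tested genes of that list, 1 passed with Nr3c1 and 2 with Sgk1, against 9.94% and 13.3% of all genes. Against the microglia score, where 2998 of 25565 genes passed, r was -0.55 and -0.61 in that order (limma adjusted p = 0.013 and 0.0030). With the immediate-early score it was -0.50 and -0.53 (limma adjusted p = 0.0350 and 0.0172). Whether white matter content sets the levels of Nr3c1 or Cdkn1a was not tested.

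Cdkn1a followed the immediate-early genes. Its r with their score was 0.85 (rho = 0.75, permutation p = 1e-05 for both, limma adjusted p = 1.2e-06), 3rd of 25559 genes, where 8.61% passed. It was 0.78 without the 2 farthest mice and between 0.76 and 0.91 in each group, and 10 of 13 immediate-early genes passed with it. Cdkn1a also varied with the microglia score (r = 0.59, limma adjusted p = 0.0046), where 2998 of 25565 genes passed. With the astrocyte score, where 2321 of 25565 passed, r was 0.54 (limma adjusted p = 0.0152). Its closest genes were Metrnl (r = 0.93), a secreted growth factor, Dnajb1 (r = 0.90), a co-chaperone of Hsp70, and Btg3 (r = 0.88), an inhibitor of proliferation.

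Per1 followed both the clock genes and the immediate-early genes. With the clock score r was 0.77 (rho = 0.76, permutation p = 1e-05 for both, limma adjusted p = 6.2e-04), 3rd of 25560 genes, where 2.23% passed. The genes that passed were Per2 (r = 0.72), Cry2 (0.67), Ciart (0.63) and Nr1d1 (0.59), 4 of 12. With the immediate-early score as a covariate the relation to the clock score was r = 0.65 (limma adjusted p = 0.154). With the immediate-early score itself r was 0.72 (rho = 0.73, permutation p = 1e-05 for both, limma adjusted p = 3.7e-04). Without the 2 farthest mice r was 0.74 with either score. With the immediate-early score as a covariate, Per1 and Cdkn1a had r = -0.14. The closest genes were Chrm4, a muscarinic receptor (r = 0.88), Pigt (0.83) and Erf (0.82).

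Fkbp5 followed the other glucocorticoid targets. Its r with the score of the 20 genes was 0.79 (rho = 0.80, permutation p = 1e-05 for both, limma adjusted p = 6.0e-04), 2nd of 25552 genes, where 1.1% passed. It was 0.74 without the 2 farthest mice, 0.76 without Brd1+/- vehicle 6, 0.69 and not called with a replicate block, and between 0.59 and 0.87 in each group. Sult1a1 (r = 0.72), Plin4 (0.72), Nfkbia (0.59) and Ddit4 (0.59) passed with it, 4 of 20, against 0.504% of all genes. The next largest r of Fkbp5 were 0.53 with the striatal score (limma adjusted p = 0.0575) and 0.46 with the choroid plexus score (limma adjusted p = 0.235), and without Brd1+/- vehicle 6, the library high in both, they were 0.33 and 0.14. With the oligodendrocyte score r was 0.29 and with the immediate-early score 0.15. Of the other 9 genes none passed with the same target score. The largest r were those of Mt2 (0.52, limma adjusted p = 0.0684), Mt1 (0.44, limma adjusted p = 0.141) and Sgk1 (0.43, limma adjusted p = 0.162), and r was 0.31 for Tsc22d3, -0.05 for Nr3c1 and -0.02 for Per1. The closest genes to Fkbp5 were Nxn (r = 0.76), a redox protein, P4hb (0.75), a protein disulfide isomerase, and Gm8730 (0.73).

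Mt2 followed the astrocyte markers, the cells in which brain metallothioneins are most abundant. Its r with their score was 0.68 (rho = 0.65, permutation p = 1e-05 and 7e-05, limma adjusted p = 5.1e-04), 414th of 25565 genes, where 9.08% of genes passed. It was 0.73 without the 2 farthest mice. With the oligodendrocyte and endothelial scores as covariates r was 0.63 and not called (limma adjusted p = 0.0690). Of 7 markers, 4 passed, and r with single markers was between -0.13 and 0.69. Mt2 also ran against the cortical neuron score (r = -0.56, limma adjusted p = 0.0239), where 865 of 25562 genes passed. Of the 10 neuron markers, 2 passed at a negative r and 0 at a positive r, against 5.65% of all genes. Their single r with Mt2 was between -0.63 and 0.33. The closest genes were Sdc4 (r = 0.84), Cd63 (0.81) and Gjb6 (0.78), the last an astrocyte connexin. Mt1 had r = 0.20 with the astrocyte score, and the difference between the metallothioneins was not tested.

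**Figure D4:**
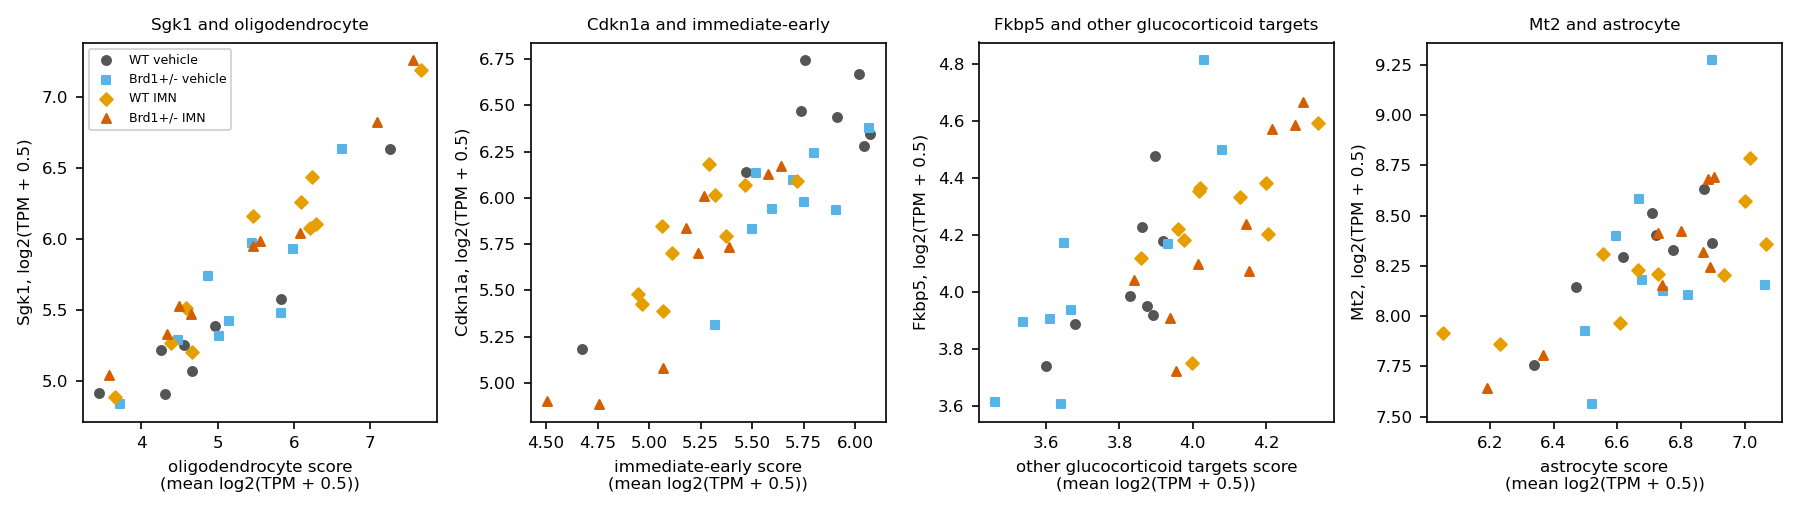
Level of 4 genes in log2(TPM + 0.5) (vertical axes) against the mean log2(TPM + 0.5) of a gene list (horizontal axes), 1 point per mouse, coloured by group. Sgk1 follows the oligodendrocyte score almost on a line (r = 0.95), Cdkn1a the immediate-early score (r = 0.85), Fkbp5 the other glucocorticoid targets (r = 0.79) and Mt2 the astrocyte score (r = 0.68).

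Nr3c1 was closest to Adcy1 (r = 0.86), Kcna1 (0.85) and Kif5c (0.84), and Nr3c2 to Pank3 (0.75), Hipk1 (0.74) and Tenm3 (0.74). With the cortical neuron score Nr3c1 had r = 0.46 and was not called (limma adjusted p = 0.0927). Of the 10 cortical neuron markers, 5 passed with Nr3c1 at a positive r and 1 at a negative r, against 9.94% of all genes. Tsc22d3, Zbtb16 and Mt1 had no gene past an adjusted p of 0.05, and their closest genes reached r = 0.71 (Gm34091), 0.69 (Arid1a) and 0.66 (Nkain4).

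**Figure D5:**
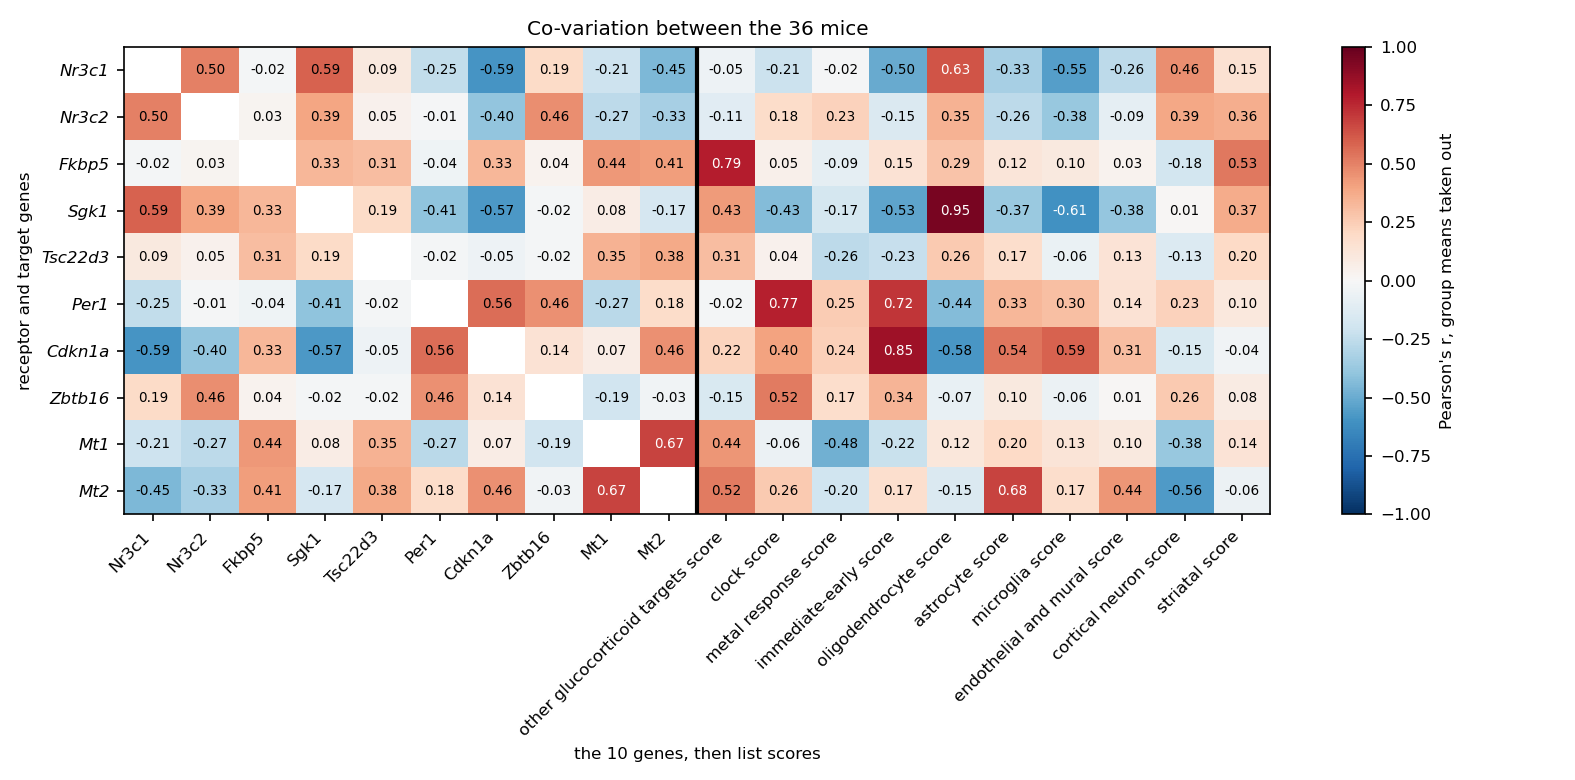
Pearson's r over 36 mice, group means taken out, between the 10 genes (left block) and between the genes and 10 list scores (right block), red for positive and blue for negative. The largest values pair Sgk1 with the oligodendrocyte score (0.95), Cdkn1a with the immediate-early score (0.85), Fkbp5 with the other glucocorticoid targets (0.79) and Per1 with the clock score (0.77).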

How the data were processed

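RNA-seq values of the right aCC of 36 female mice were used. TPM values per gene were made by the authors from single-end 50 base reads, with HISAT2 2.1.0 and StringTie 1.3.4 named in the submitters' processing notes on GRCm38. The deposited TPM keep no read depth, so depth per library is unknown, no counting interval can be given, and use of strand in counting is not given in the sources used here. Between 24685 and 25517 genes were above 0 per library, and mitochondrial genes took 21.7 to 30.5% of TPM.

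Gene IDs were paired with symbols for 52403 of 52636 genes. Genes of at least 0.1 TPM in at least 8 libraries were kept (25572), log2(TPM + 0.5) was taken, which understates changes of low genes, and limma 3.58.1 in R 4.3.3 was run with a trended prior, two-sided, with Benjamini-Hochberg adjustment over all genes tested. Group comparisons used their own libraries, and the IMN and genotype effects used all 36 with both factors. For group comparisons, the IMN and genotype effects and their interaction, calls were an adjusted p under 0.05 or an unadjusted p under 0.01. Relations of a gene to another gene or to a list score were called at an adjusted p under 0.05 alone. A pair of the studied genes had to pass in both directions. Correlations had group means taken out and p-values from 100000 two-sided permutations within groups. The procedure was tested on simulated data. Mice are separate animals, 1 library each.

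The 10 genes and all gene lists were chosen with earlier results of these data known. Other genes were named by rule: Brd1, the 3 genes of at least 1 TPM on average with the highest r to each of the 10, and from each pathway list at most 6 genes with an unadjusted p under 0.01 for the IMN effect, by p. Klf9, Pdk4, Dusp1, Hspa8, Mtf1 and the list genes named for their correlation with Per1 or Fkbp5 were chosen after their values were seen. Alternatives were the pseudocount, the filter, scaling, covariates, a replicate block and leaving out each mouse.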

Additional observations from a re-analysis of the deposited data

Results flagged for a closer look

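In 5 of 40 gene and group combinations, 1 mouse lay far from the rest of its group by Dixon's test. Chance flags about 1 in 20 groups, or 2 of 40. WT vehicle 1 had 98.8 TPM of Sgk1, against 29.4 to 47.2 in the other WT vehicle mice, and 35.8 TPM of Cdkn1a, against 70.2 to 107. The same library had the highest oligodendrocyte score (7.25) and the lowest immediate-early score (4.67) of its group, and the part of either in these values was not tested. WT vehicle 5 had 40.6 TPM of Tsc22d3, against 60.8 to 85.4. Brd1+/- IMN 7 had 127 TPM of Per1, against 58.6 to 80.6 in its group. Brd1+/- IMN 8 had 22.1 TPM of Zbtb16, against 30.7 to 40.1.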

How the results depend on the processing

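For the IMN effect over both genotypes, 2 of the 10 genes had an unadjusted p under 0.01 with the oligodendrocyte and endothelial scores as covariates, where Sgk1 joined Cdkn1a, and 0 did with the immediate-early score as a covariate, which was added after the data were seen. With the latter, differences changed sign for Sgk1 (-0.065), Per1 (0.070), Cdkn1a (0.079) and Mt2 (0.062). For the IMN effect over both genotypes, Mt2 was 0.0091 after quantile normalization, and Tsc22d3 in WT mice was -0.063 with the cell type scores. The cause was not tested.

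Leaving out 1 mouse at a time gave 1 to 2 genes for the IMN effect over both genotypes and 0 to 1 at an adjusted p under 0.05, where Cdkn1a passed without WT vehicle 1. In WT mice the range was 0 to 3, and 0 to 1 at an adjusted p under 0.05. Without WT vehicle 1 the 3 genes were Sgk1 (0.72), Per1 (-0.29) and Cdkn1a (-0.64), and without WT IMN 1, 6, 9 or 10 there was 1. In Brd1+/- mice the range was 0 to 1, and between genotypes with vehicle 0 to 2. Differences near 0 changed sign for Nr3c1 (-0.067 to 0.0041), Zbtb16 (-0.035 to 0.043) and Mt2 (-0.071 to 0.034).

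Called pairs numbered 1 with the cell type scores as covariates, where Nr3c1 with Sgk1 was -0.014, and 2 with the immediate-early score, where Per1 with Cdkn1a was -0.14, and none of the 4 pairs called without covariates was among them. Leaving out 1 mouse gave 0 to 6.

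Same-numbered libraries correlated between -0.26 and 0.26 after group means were taken out. Of the 9 such pairs of Brd1+/- IMN and WT IMN, 1 exceeded 0.1. The paper describes litter-matched mice but the labels give no litter, so these correlations cannot settle whether mice were paired. With a replicate block, 1 gene was called for the IMN effect over both genotypes and 0 at an adjusted p under 0.05, 1 in WT mice (Cdkn1a, -0.57), 0 in Brd1+/- mice, 0 for genotype, the interaction and both genotype contrasts within a treatment, 3 pairs, 9 other glucocorticoid targets and 9 immediate-early genes.

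TPM hold no depth, so the precision of low genes such as Galnt15 could not be weighed by reads. Recent stress was common to all groups, so none of these levels is an unstressed one.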
